A study of Sus scrofa with 48 samples.

Results

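The genes of fatty acid synthesis, fatty acid desaturation and triacylglycerol assembly were examined in the longissimus muscle of growing pigs. The list held 10 genes, FASN, SCD, ACLY, ME1, ELOVL6, FADS1, FADS2, DGAT1, DGAT2 and SREBF1, chosen by name with earlier results of these data known. On the 60 K pig oligonucleotide array 35 of the 60305 distinct probes belonged to these 10 genes. The array's own names or descriptions gave 31 of them, for 8 genes. The other 4 probes, 3 of ACLY and 1 of DGAT1, carry the older names ACL and DGAT on the array and were found through the transcript accession given beside the name. Of the 35 probes, 32 were well above the local background on at least 12 of 48 arrays and were tested among 42125 probes in all; every gene kept at least 1 tested probe. The 3 probes that were not tested, 1 each of FASN, FADS1 and FADS2, were above background on 1, 2 and 1 arrays.

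The 48 animals were barrows of 2 purebred Large White lines, selected in opposite directions for residual feed intake (RFI), the feed eaten beyond what growth and maintenance predict. Low RFI pigs are the more feed-efficient line. Each line was split over a pair of diets fed without restriction. The HF diet was rich in both fat and fiber and the LF diet was poor in both, which made 4 groups of 12 pigs. The age of the pigs was not given in the sources used here. Fat and fiber changed together between the diets, so that their parts in a diet difference cannot be told apart. Each pig had 1 array with 1 colour, and each value here is a log2 signal minus the mean of its array over the tested probes, called the level. Levels are compared between pigs for 1 probe at a time, never between probes.

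New fatty acids are made in the cytosol. ATP citrate lyase (ACLY) splits citrate to give acetyl-CoA, malic enzyme (ME1) gives NADPH, and fatty acid synthase (FASN) joins the units to palmitate. ELOVL6 lengthens palmitate to stearate, stearoyl-CoA desaturase (SCD) makes the monounsaturated oleate from it, and FADS1 and FADS2 put further double bonds into the polyunsaturated fatty acids of the diet. DGAT1 and DGAT2 add the last fatty acid to triacylglycerol, and SREBF1 encodes a transcription factor that switches on many of these genes. In pigs this pathway is most active in adipocytes, some of which lie between the muscle fibers, and a high-fat diet is known to lower it in adipose tissue.

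The arrays lay on 6 slides of 8, with 2 pigs of each group on every slide. Their median signal ran from 52.8 to 107.9 and 59.2% to 74.2% of probes were well above background, and no member probe was saturated. The tissue label held, since 13 of 14 muscle fiber markers had a probe above background on all 48 arrays and the remaining marker, MB, had no probe named so. Adipocyte markers were measured too: 12 of 15 were tested, and the 5 defining ones among them, ADIPOQ, LEP, PLIN1, CIDEC and FABP4, were above background on all 48 arrays. A muscle sample is therefore a mixture, and fewer cells of a type and less RNA per cell cannot be told apart.

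The probes themselves differ in what they can read, and some of their 60-base sequences are shown because the members' results turn on them. First, the FADS1 probe that was tested, A_72_P441229, and the FADS1 probe that was not, O3556, run in opposite senses, and they were above background on 15 and 2 arrays. The capitals mark a stretch of 19 bases of which each probe holds the reverse complement of the other:
FADS1 A_72_P441229: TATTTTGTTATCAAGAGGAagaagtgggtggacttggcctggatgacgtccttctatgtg
FADS1 O3556: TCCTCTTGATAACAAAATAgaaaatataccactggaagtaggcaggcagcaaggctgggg
The level of O3556 was therefore not read as a level of FADS1.

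Second, some probes are not separate measurements. The FASN probes A_72_P338038 and A_72_P647699 hold the same 60 bases. Their levels correlated at 0.99 over the 48 pigs, which shows the agreement of spots within an array and not the repeatability between arrays:
FASN A_72_P338038: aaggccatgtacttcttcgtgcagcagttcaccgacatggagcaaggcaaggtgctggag
The ME1 probes A_72_P444471 and O15000 are identical as well (r = 0.98). The DGAT2 probes A_72_P288804 and O8336 share 27 bases, in capitals, and correlated at 0.89:
DGAT2 A_72_P288804: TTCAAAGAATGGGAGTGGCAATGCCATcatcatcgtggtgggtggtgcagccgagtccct
DGAT2 O8336: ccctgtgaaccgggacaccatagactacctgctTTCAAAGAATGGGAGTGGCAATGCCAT
Further, a gene's probes did not always give 1 pattern. The 11 SCD probes correlated with each other at 0.91 to 0.999, and the lowest of these values were those of A_72_P558694, the SCD probe above background on the fewest arrays (42). The 2 ELOVL6 probes correlated at 0.68, and ME1 probe A_72_P306288 correlated at 0.66 and 0.68 with the other 2. Of the 3 SREBF1 probes, A_72_P326973 and A_72_P223967 correlated at 0.78, while O13456 correlated with them at 0.01 and -0.01. Sequences of an SCD probe, of the second ELOVL6 probe and of the only tested FADS2 probe, all without capitals, show what was read for these genes:
SCD A_72_P558694: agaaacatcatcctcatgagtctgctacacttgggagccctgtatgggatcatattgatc
ELOVL6 O1689: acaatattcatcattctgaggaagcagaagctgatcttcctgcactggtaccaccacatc
FADS2 O13379: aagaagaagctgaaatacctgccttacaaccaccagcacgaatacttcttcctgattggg
Below, each gene is described at its main probe, the tested probe with the highest mean signal, and its other probes follow.

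The first question was whether the HF diet changed these genes. Averaged over the lines, 0 of the 32 member probes passed for diet after adjustment (limma, Benjamini-Hochberg over all tested probes), against 177 of the 42125 probes, which is 0.42%. At an unadjusted p under 0.05, 1 member probe was lower on the HF diet, beside 13.1% of all tested probes. It was O13456, named SREBF1 on the array, which was not checked to read the pig transcript. The direction was mostly the same: 28 of the 32 member probes were lower on the HF diet and 4 were higher, with a median difference of -0.22 (HF minus LF, log2) beside 0.00192 over all tested probes. These 28 probes do not count as 28 measurements, since 11 are of SCD and several share sequence.

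The lines were then taken 1 at a time. In the low RFI line 30 of the 32 probes were lower on the HF diet, with a median difference of -0.47. An unadjusted p under 0.05 was reached by 17 probes named for 5 genes (SCD, FASN, ACLY, DGAT2 and SREBF1), all lower. Of all tested probes, 11.6% did so in either direction. Of the 17, 11 were of SCD, and SREBF1 was counted through O13456 alone. The other SREBF1 probes, A_72_P223967 and A_72_P326973, gave 0.003 and 0.01. None of the 17 passed adjustment (smallest limma adjusted p = 0.22), while 84 probes of the whole array did, 0.199%. In the high RFI line the sign was mostly the opposite: 26 of the 32 probes were higher on the HF diet, with a median of 0.14. Among the 26 were FADS1 A_72_P441229 and ACLY A_72_P710913, kept only through the high RFI pigs on the HF diet. Their direction in this line is a description. In the high RFI line 1 member probe, O13456 again, reached an unadjusted p under 0.05, lower on the HF diet, and 0 passed adjustment. Of all tested probes 5.47% did the former and 0% the latter.

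**Figure D1:**
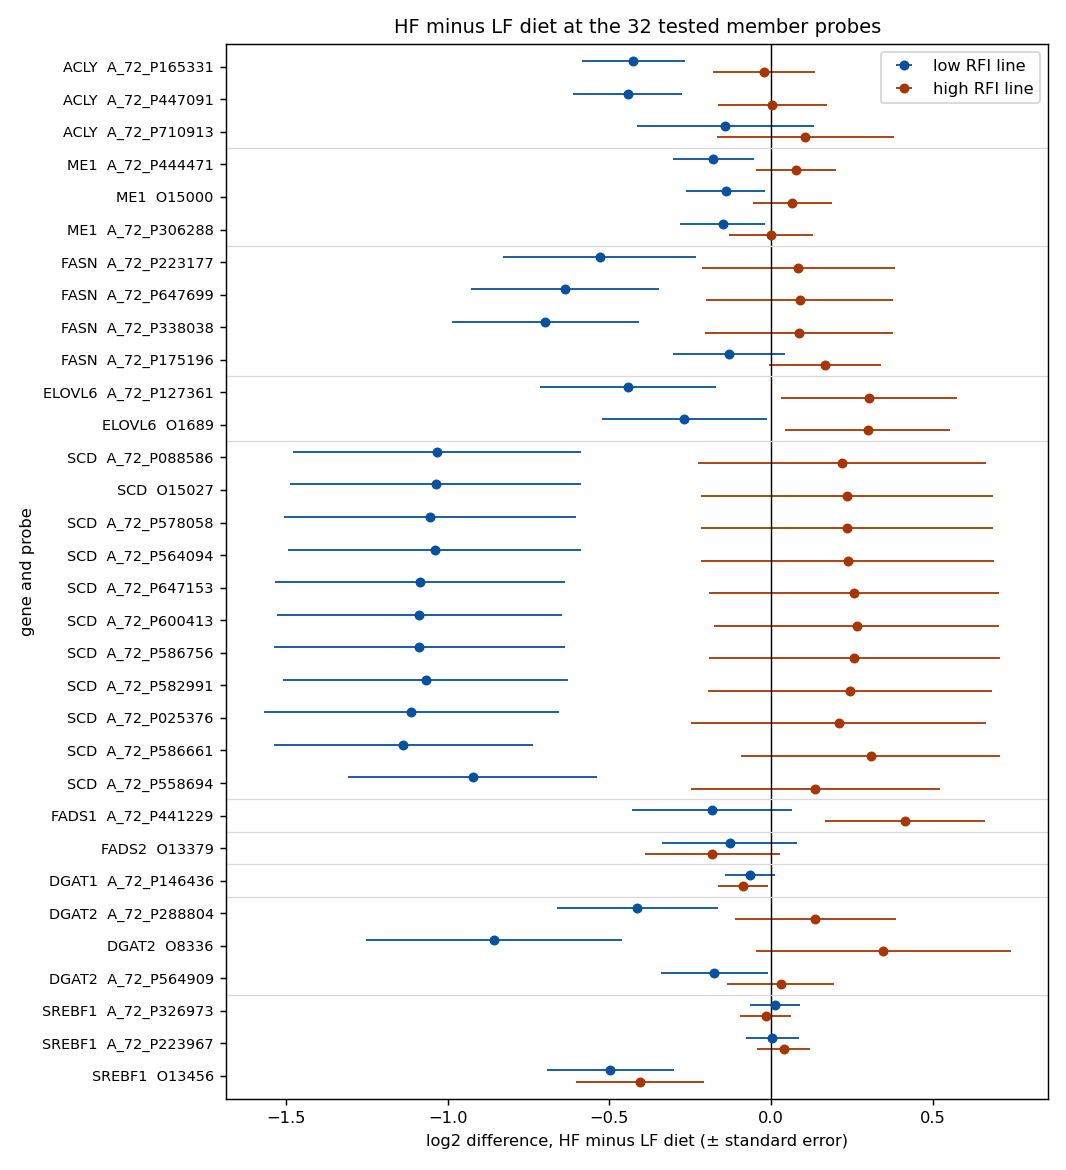
HF minus LF diet at each of the 32 tested member probes, in the low and in the high RFI line. The horizontal axis is the log2 difference, points are differences of group means (12 pigs each) and bars are standard errors from limma. The 11 SCD probes lie between -1.14 and -0.92 in the low RFI line and between 0.14 and 0.31 in the high RFI line.

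ACLY, which supplies acetyl-CoA, had its lowest mean and its smallest SD (0.25) among low RFI pigs fed the HF diet. Its level there ran from 1.78 over a median of 2.21 to 2.64. In the low RFI, LF diet group it ran from 2.04 over 2.64 to 3.30. Among high RFI pigs it ran from 2.07 over 2.45 to 3.98 on the HF diet and from 2.10 over 2.68 to 3.28 on the LF diet. The groups overlapped, but 6 of the 12 low RFI pigs on the LF diet lay above all 12 low RFI pigs on the HF diet. The diet difference in the low RFI line was -0.43 (standard error 0.16, 0.744-fold, limma unadjusted p = 0.01, adjusted p = 0.254). In the high RFI line it was -0.02 (standard error 0.16). The second ACLY probe, A_72_P447091, gave -0.44 and 0.00254, and A_72_P710913, which was above background on only 17 arrays and was kept only through 6 high RFI pigs on the HF diet, gave -0.14 and 0.10.

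ME1, a source of NADPH for the synthase, differed little between the diets. At its main probe the mean level was 2.72 ± 0.32 (SD, n = 12) in the low RFI, HF diet group and 2.90 ± 0.26 (n = 12) on the LF diet. The difference of -0.18 (standard error 0.12) had an adjusted p of 0.609 in limma. In the high RFI line the means were 2.87 ± 0.34 and 2.79 ± 0.30 (n = 12 each). All 4 groups overlapped, and the 95% interval of the diet difference averaged over lines was -0.23 to 0.13.

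FASN, the synthase itself, had its lowest mean in the low RFI, HF diet group, as ACLY did. In low RFI pigs its level ran from 2.80 over 3.83 to 5.24 on the HF diet and from 3.30 over 4.53 to 5.66 on the LF diet. In high RFI pigs the medians of both diets were 4.37, with ranges of 3.11 to 5.38 on the HF diet and 3.02 to 5.17 on the LF diet. The groups overlapped over most of their ranges, and the lowest median was that of low RFI pigs on the HF diet. The diet difference in the low RFI line was -0.53 (standard error 0.30, 0.693-fold, limma adjusted p = 0.502). The pair of identical FASN probes gave -0.70 and -0.64 there, with unadjusted p of 0.0198 and 0.0328 and adjusted p of 0.322 and 0.375 (limma). The dim probe A_72_P175196 gave -0.13, and it correlated with the main probe at 0.71 over the 48 pigs. It holds the reverse complement of 35 bases of O15017, the FASN probe that was not tested. At most 1 of the 2 can therefore read the FASN transcript. A_72_P175196 was above background on 39 arrays and O15017 on 1, and which of them reads the transcript was not checked on its sequence.

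ELOVL6, the elongase that acts on palmitate, had diet differences of opposite sign in the 2 lines, neither of which passed the test. At its main probe the HF minus LF difference was -0.44 (standard error 0.27) in the low RFI line and 0.30 (standard error 0.27) in the high RFI line, with limma adjusted p of 0.547 and 0.968. The second probe, O1689, gave -0.27 and 0.30 (standard error 0.25 each).

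SCD, which turns stearate into oleate, had the widest spread between pigs of the 10 genes at the main probe (SD 1.16 over all pigs), and the largest diet difference in the low RFI line, though not in the high RFI line. Its level ran from 1.34 over a median of 2.64 to 4.38 in the low RFI, HF diet group, and from 2.15 over 3.93 to 5.28 in the low RFI, LF diet group. In high RFI pigs it ran from 1.89 over 3.83 to 5.75 on the HF diet and from 1.61 over 4.07 to 5.26 on the LF diet. The low RFI, HF diet group thus sat lowest, although its range overlapped those of the others. In each group the highest and the lowest pig lay more than 3 log2 units apart, at least 3.03. The diet difference in the low RFI line was -1.03 (standard error 0.44, 95% interval -1.93 to -0.14), which is 0.489-fold. Its unadjusted p was 0.0244 and its limma adjusted p was 0.341. In the high RFI line the difference was 0.22 (standard error 0.44, 95% interval -0.68 to 1.11). All 11 SCD probes had an unadjusted p under 0.05 in the low RFI line, with adjusted p from 0.22 to 0.346, and 0 of 11 did in the high RFI line.

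**Figure D2:**
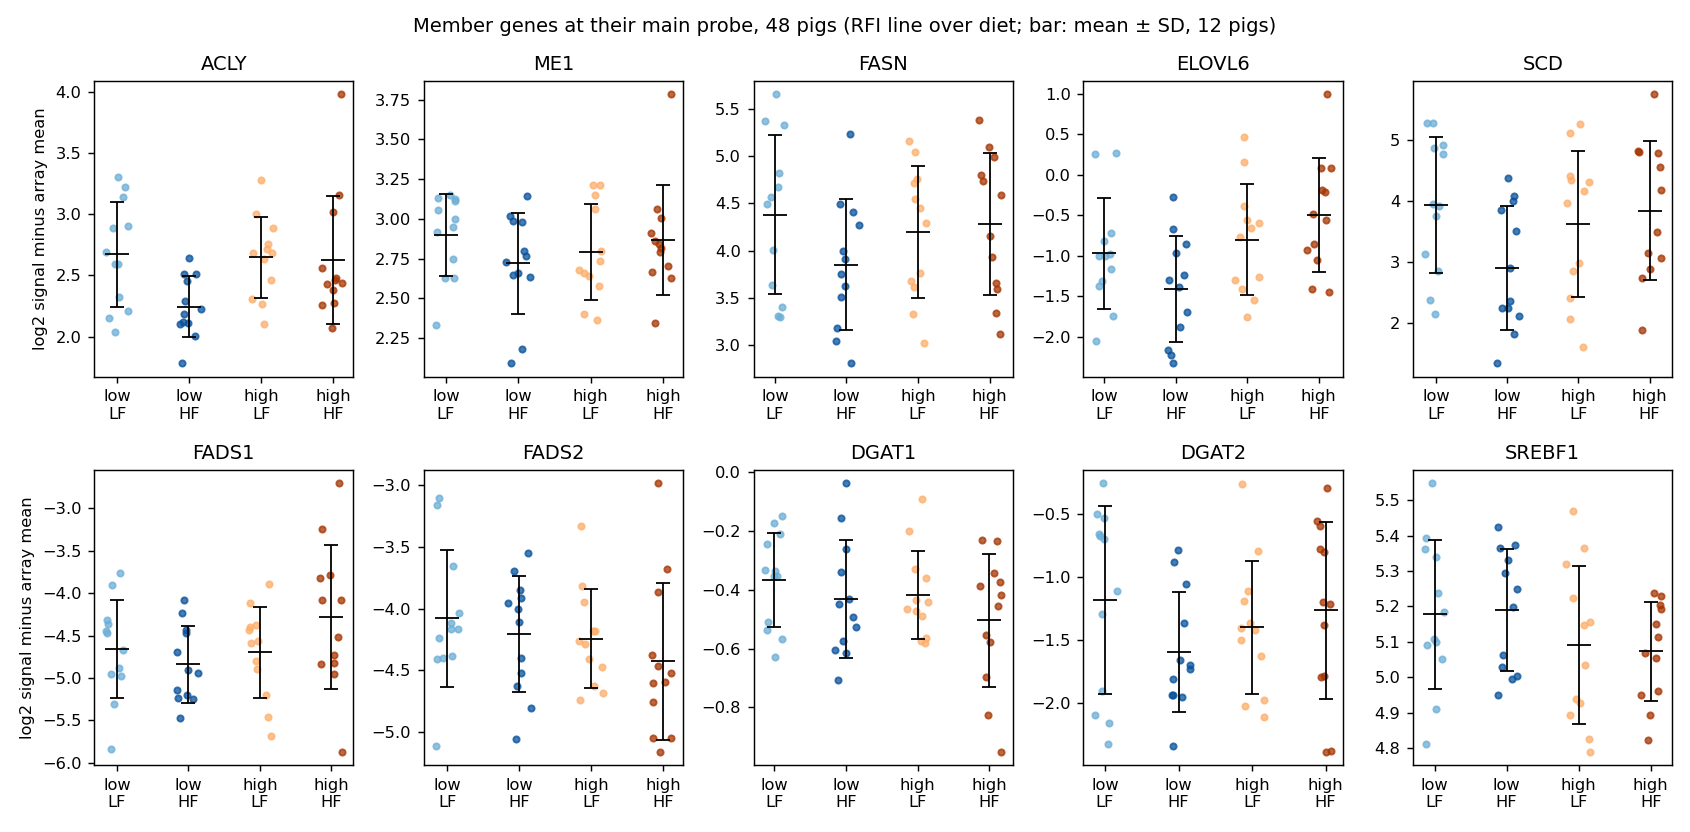
Level of each of the 10 genes at its main probe in the 48 pigs, by RFI line and diet; the vertical axis is the log2 signal minus the array mean, points are pigs, and bars give the mean ± SD of 12 pigs. For SCD the low RFI, HF diet group has the lowest mean (2.91), and the 4 groups overlap for every gene.

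FADS1 and FADS2, the desaturases of polyunsaturated fatty acids, were read by 1 dim tested probe each, above background on 15 and 16 of 48 arrays. On the HF diet FADS1 was above background in 2 low RFI and 7 high RFI pigs, and on the LF diet in 3 pigs of each line. Its mean level was lowest in the low RFI, HF diet group, at -4.84 ± 0.45, and highest in the high RFI, HF diet group, at -4.29 ± 0.85 (SD, n = 12 each). The group with the highest mean is also the one through which this probe passed the filter of 12 arrays, so that the order of its groups is no result. FADS2 was above background in 6 low RFI and 3 high RFI pigs on the HF diet, and in 4 and 3 on the LF diet. Its probe was kept only through the low RFI pigs on the HF diet. The diet difference averaged over lines was 0.12 for FADS1 (95% interval -0.24 to 0.47) and -0.16 for FADS2 (95% interval -0.45 to 0.14). Since each probe was kept through a group on the HF diet, both differences are descriptions. With most pigs near background, smaller diet differences of these 2 genes were not detectable.

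DGAT2, which adds the last fatty acid in adipocytes and liver, had a mean of -1.60 ± 0.48 in the low RFI, HF diet group and -1.18 ± 0.75 on the LF diet (SD, n = 12 each). The medians were -1.72 and -0.90. Again 6 of the 12 low RFI pigs on the LF diet lay above all low RFI pigs on the HF diet. The difference was -0.41 (standard error 0.25, limma adjusted p = 0.538). In the high RFI line it was 0.14. Its overlapping probe O8336 gave -0.86 (standard error 0.39, unadjusted p = 0.0348, limma adjusted p = 0.381), and A_72_P564909 gave -0.18. DGAT1, which catalyses the same reaction and is encoded by an unrelated gene, spread little over the 48 pigs at its main probe (SD 0.188), as did SREBF1 (SD 0.191). Its mean levels ran from -0.50 ± 0.23 in the high RFI, HF diet group to -0.37 ± 0.16 in the low RFI, LF diet group (SD, n = 12 each). Its diet differences were -0.07 and -0.09 in the low and the high RFI line (standard error 0.08 each).

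SREBF1, the regulator, had probes that disagreed. Its main probe A_72_P326973 differed between diets by less than the spread between pigs, with means of 5.19 ± 0.17 and 5.18 ± 0.21 on the HF and the LF diet in the low RFI line and 5.07 ± 0.14 and 5.09 ± 0.22 in the high RFI line (SD, n = 12 each). The diet difference averaged over lines was -0.003 (95% interval -0.11 to 0.11), and its sign turned under several scalings. Probe A_72_P223967 gave 0.02. Probe O13456 carries another transcript accession than these 2, one not found in the pig gene table used here, and did not correlate with them across pigs, so that whether it reads pig SREBF1 could not be checked. It was lower on the HF diet in both lines, by -0.50 in the low and -0.41 in the high RFI line (standard error 0.20 each). Averaged over lines its difference was -0.45 (standard error 0.14), the smallest diet p among the members (unadjusted p = 0.00227, limma adjusted p = 0.125). Of the 48 fits that left out 1 pig, it passed in the 1 without high RFI, HF diet pig 9 (adjusted p = 0.0498).

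The diet difference was also taken within slides. On each of the 6 slides, where 2 low RFI pigs of each diet could be set side by side, the HF minus LF difference was below 0 on 6 of 6 slides for SCD (-2.09 to -0.33), FASN (-1.33 to -0.03), ACLY (-0.70 to -0.03), ELOVL6 (-1.11 to -0.03) and DGAT2 (-0.81 to -0.02). For the other 5 genes the sign was not the same on all slides. Slides took 7.44% to 40.9% of the variance of the main probes, the most for SREBF1 and DGAT2, and the 4 groups took 5.29% to 20.5%. The shares are not corrected for the number of slides or groups, which differ, so that they are not set against each other. With the slide as a block in the fit, 0 member probes passed for diet.

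The second question was whether the lines differed. Averaged over the diets, 2 of 32 member probes differed after adjustment (6.25%), both higher in the high RFI line, against 6919 of 42125 or 16.4% of all tested probes. The members' share lay under that of the array. They were also the only 2 member probes at an unadjusted p under 0.05, which 31% of all tested probes reached. The median difference over the 32 probes was 0.25 (high minus low RFI, log2), beside -0.03 over all tested probes.

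The first was the ME1 probe A_72_P306288. Its level ran from -0.13 over a median of 0.90 to 1.10 in the low RFI, HF diet group and from 0.40 over 1.04 to 1.24 in the low RFI, LF diet group. In high RFI pigs it ran from 0.68 over 1.29 to 1.74 on the HF diet and from 0.74 over 1.32 to 1.81 on the LF diet. High RFI pigs were higher on both diets, with overlapping ranges. The line difference was 0.41 (standard error 0.09, 1.33-fold, limma adjusted p = 0.00166). However, the identical probes A_72_P444471 and O15000, which include the main probe, gave 0.02 and 0.04 (standard error 0.09 each). ME1 was therefore higher in the high RFI line at 1 of its 2 distinct probe sequences, and the mean over its probes did not pass.

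The second was the main probe of ELOVL6, A_72_P127361. Its level ran from -2.33 over a median of -1.34 to -0.28 in the low RFI, HF diet group, and from -2.05 over -1.003 to 0.27 in the low RFI, LF diet group. In high RFI pigs it ran from -1.45 over -0.52 to 0.99 on the HF diet and from -1.76 over -0.71 to 0.46 on the LF diet. High RFI pigs had the higher medians on both diets, with wide overlap. The line difference was 0.54 (standard error 0.19, 1.46-fold, limma adjusted p = 0.044). The second ELOVL6 probe, O1689, gave -0.02 (standard error 0.18). The call at the main probe was lost when any of 24 of the 48 pigs was left out, 6 in each group (adjusted p from 0.0235 to 0.0727 over the 48 fits). On 5 of 6 slides the difference was above 0.

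On the HF diet alone, 27 of the 32 probes had higher levels in high RFI pigs, with a median difference of 0.52. Among the 27 were FADS1 A_72_P441229 and ACLY A_72_P710913. Both were kept only through high RFI pigs on the HF diet, so that their direction is a description. An unadjusted p under 0.05 was reached by 19 probes of 7 genes, FADS1 among them. All 19 were higher in the high RFI line, beside 24.2% of all tested probes in either direction. After adjustment the same 2 probes passed, ELOVL6 at 0.92 (standard error 0.27, limma adjusted p = 0.0347) and ME1 A_72_P306288 at 0.49 (standard error 0.13, adjusted p = 0.021), against 6.39% of all tested probes. The ELOVL6 call was lost without any of 8 pigs, low RFI pigs 1, 5, 6 and 10 and high RFI pigs 7, 8, 9 and 10 on the HF diet. The ME1 call was kept in all 48 fits that left out 1 pig.

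The 11 SCD probes differed by 0.91 to 1.20 between the lines on the HF diet, and none of them passed (limma adjusted p from 0.0577 to 0.199). The probe nearest the threshold, A_72_P586661, passed without low RFI pig 2 on the HF diet, without high RFI pig 3 on the HF diet or without high RFI pig 3 on the LF diet. At the main SCD probe the difference was 0.94 (standard error 0.44, 1.92-fold, adjusted p = 0.184), and it was above 0 on 6 of 6 slides (0.02 to 2.10). SREBF1 was lower in high RFI pigs on 6 of 6 slides when averaged over diets (-0.20 to -0.02), with a line difference of -0.10 at the main probe (standard error 0.06, limma adjusted p = 0.202). On the HF diet ACLY differed by 0.38 (adjusted p = 0.128), also above 0 on 6 of 6 slides. FASN differed by 0.43 (adjusted p = 0.382). FADS1 differed by 0.56 (adjusted p = 0.155), and is 1 of the 19 probes above, but 10 of its 12 low RFI pigs on the HF diet were not above background and its probe was kept only through the high RFI pigs on that diet, so that this difference is a description.

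On the LF diet no member probe passed for the line. Of the 32 probes, 30 had lower levels in high RFI pigs, with a median of -0.16, and 0 passed adjustment, against 2.47% of all tested probes. The ME1 probe A_72_P306288 was the only one at an unadjusted p under 0.05, which 16.5% of all tested probes reached, at 0.34 (standard error 0.13, limma adjusted p = 0.162).

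**Figure D3:**
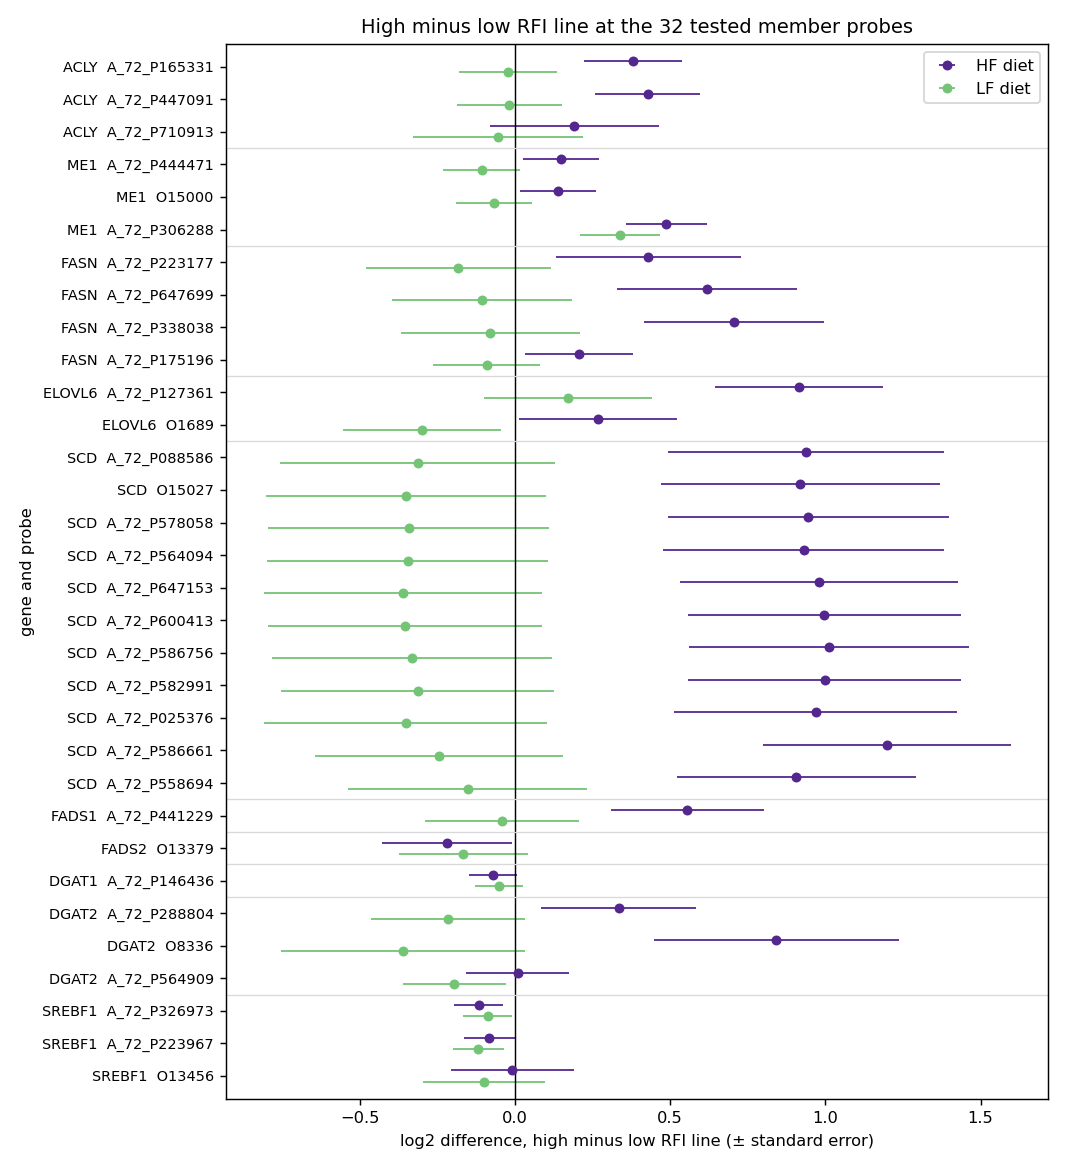
High minus low RFI line at each of the 32 tested member probes, by diet. The horizontal axis is the log2 difference, points are differences of group means (12 pigs each) and bars are standard errors from limma. On the HF diet the SCD probes lie between 0.91 and 1.20, and on the LF diet between -0.36 and -0.15.

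The diet difference in the low RFI line and the line difference on the HF diet both use the same 12 low RFI pigs on the HF diet, so that they are not separate evidence. That group had the lowest mean of the 4 for FASN, SCD, ACLY, ME1, ELOVL6 and DGAT2. High RFI pigs on the HF diet had the lowest for DGAT1 and SREBF1. The highest mean was that of the low RFI, LF diet group for FASN, SCD, ACLY, ME1, DGAT1 and DGAT2. It was that of the high RFI, HF diet group for ELOVL6, and of the low RFI, HF diet group for SREBF1. FADS1 and FADS2 are left out of this order, since the probe of each was kept only through a single group.

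Whether the diet difference itself differed between the lines was tested as an interaction. No member probe passed (limma adjusted p = 0.999 for each), and neither did any probe of the array, 0%. At an unadjusted p under 0.05 there were 8 member probes, 7 of SCD and 1 of DGAT2, beside 4.45% of all tested probes. The interaction was 1.25 at the main SCD probe (standard error 0.63, 95% interval -0.01 to 2.51). The median over the 32 probes, with those kept only through a single group among them, was 0.60, beside -0.00654 over all tested probes. A difference in diet response between the lines was therefore not shown for these genes.

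The other genes of fatty acid and triacylglycerol synthesis were taken from a list of 43, of which 36 were on the array and 32 had a tested probe, 76 probes in all. For diet averaged over lines 0 of 76 probes passed, and 11 of 7 genes had an unadjusted p under 0.05 (14.5% of the list, near the 13.1% of all tested probes), 10 of them lower on the HF diet. In the low RFI line 10 probes did, all lower on the HF diet (13.2% of the list, beside 11.6% of all tested probes), and 0 passed. Among these was ACACA, which makes the malonyl-CoA that FASN uses, at -0.48 at probe A_72_P079111 (standard error 0.17, limma unadjusted p = 0.00686, adjusted p = 0.222), named after its values were seen. For the line 13 probes of 8 genes passed, of which 7 were higher and 6 were lower in high RFI pigs. That is 17.1% of the list, near the 16.4% of the whole array. Higher were MCAT, an acyl transferase of mitochondrial fatty acid synthesis (0.44, limma adjusted p = 0.00163), ELOVL5, an elongase of polyunsaturated fatty acids (0.39, adjusted p = 0.00613), MLX, the partner of the carbohydrate response factor (0.34, adjusted p = 0.00436), and PGD, an NADPH-giving enzyme of the pentose phosphate pathway (0.19 and 0.18 at 2 probes, adjusted p = 0.0109 and 0.0135). The 2 further higher probes were those of ELOVL1 (0.16 and 0.15), named here, as is the second TECR value, after their values were seen. Lower were LPIN1, a phosphatidate phosphatase (-0.37 at 1 of 7 probes, adjusted p = 0.0158), AGPAT3, an acyl transferase (-0.26, -0.22 and -0.21 at 3 of 4 probes), and TECR, the last enzyme of very long chain elongation (-0.19 and -0.17). The other ELOVL5 and the other MCAT probe had values of -0.06 and -0.10, so that these 2 genes too had probes that disagreed. The 4 tested ACACA probes had line differences of -0.03 to 0.10, and 0 passed.

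Across the 48 pigs, 5 of the members went up and down together. FASN, SCD, ACLY, ELOVL6 and DGAT2 correlated with each other at r = 0.67 to 0.91 in all 10 pairs (Spearman's rho 0.65 to 0.91). Each of the 10 had the smallest p that 100000 permutations give, 1e-05, which is 4.5e-05 after Benjamini-Hochberg adjustment over the 45 pairs of members. The closest pair was FASN and SCD (r = 0.91, rho = 0.91). Without the 2 pigs farthest from the median of the first gene, the 10 values ran from 0.61 to 0.91, and after removing group and slide means from 0.69 to 0.89. Of the other 35 pairs, only FASN with DGAT1 passed (r = 0.38, adjusted p = 0.0316; rho = 0.36, adjusted p = 0.0516), and its r was 0.30 without 2 pigs. SREBF1 at its main probe had r from -0.27 to -0.25 with each of the 5, none of which passed (adjusted p from 0.158 to 0.186).

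**Figure D4:**
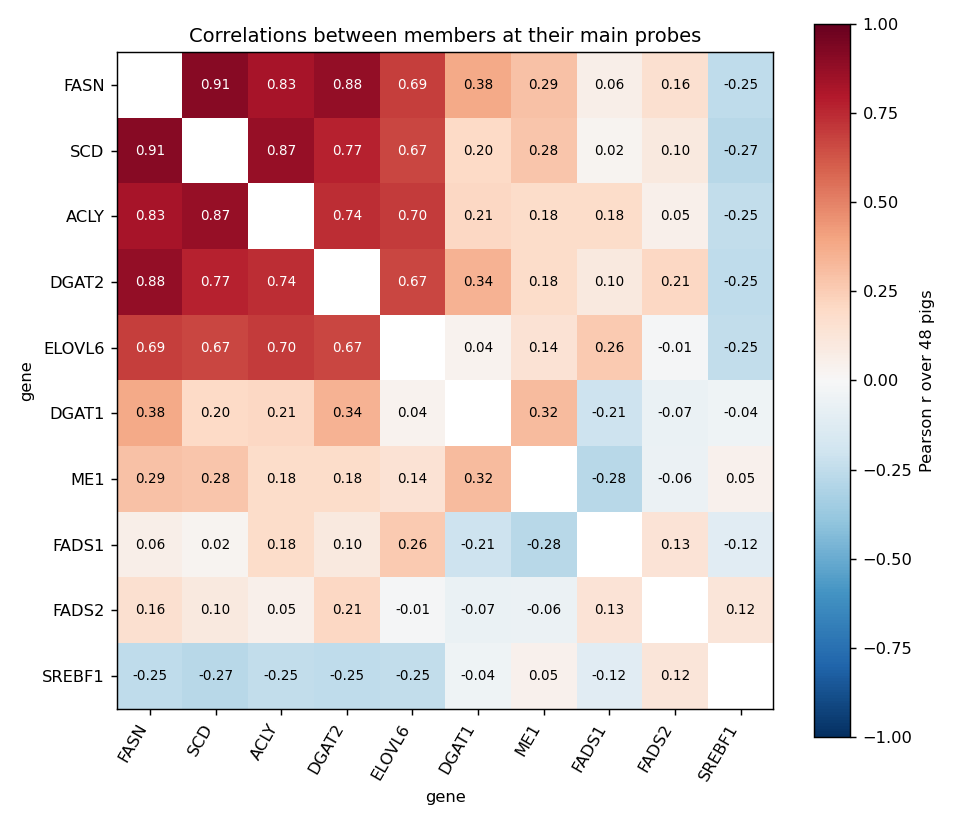
Pearson correlations between the members at their main probes over 48 pigs; each cell gives r for the gene in its row and the gene in its column. FASN, SCD, ACLY, DGAT2 and ELOVL6 form a block with r from 0.67 to 0.91, and SREBF1 lies below 0 with all 5.

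The genes most like each member over the 48 pigs, by Pearson r and as a description only, divided the members in the same way. For FASN they were SCD (0.92), CIDEC (0.91), ALDOC (0.89), DGAT2 (0.89) and ADIPOQ (0.87). CIDEC coats lipid droplets and ADIPOQ encodes adiponectin, both of adipocytes. For SCD they were FASN (0.91), ACLY (0.87), ELOVL6 (0.87, at probe O1689), CIDEC (0.83) and ACACA (0.82). For ACLY they were ACACA (0.88), SCD (0.88), FASN (0.83), ELOVL6 (0.81) and PNPLA3 (0.78). For ELOVL6 they were SCD (0.74), FASN (0.73), ACACA (0.73), ACLY (0.70) and DGAT2 (0.67). For DGAT2 they were FASN (0.89), ALDOC (0.87), ADIPOQ (0.86), PLIN1 (0.83) and CIDEC (0.83). The other 5 members had no gene of the pathway among their 5 nearest. The closest to SREBF1 were CYP2S1 (0.91), HGS (0.88), SARDH (0.87), BCL11A (0.87) and ATP4B (0.87). Slide means were not removed for these values, and slides took 40.9% of the variance of the SREBF1 main probe. The closest to ME1 was ZZEF1 (0.64), to DGAT1 NUCB1 (0.70), to FADS1 CCDC113 (0.60) and to FADS2 MLN (0.57).

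Because adipocytes hold the same enzymes, each member was set against the adipocyte marker level of the pig, the mean level of the 12 tested markers. FASN (r = 0.82, rho = 0.84), DGAT2 (r = 0.82, rho = 0.84), SCD (r = 0.72, rho = 0.72), ACLY (r = 0.66, rho = 0.67) and ELOVL6 (r = 0.58, rho = 0.61) rose with it (two-sided permutation p of 1e-05, the smallest that 100000 permutations give, or 3e-05 for the r of ELOVL6; adjusted over the 10 members, p was 2.5e-05 to 6e-05 for r and 2e-05 for rho). DGAT1 was weaker (r = 0.34, rho = 0.37, permutation p = 0.018 and 0.0116, adjusted p = 0.03 and 0.0193). ME1 (r = 0.26, rho = 0.20), FADS2 (r = 0.20, rho = 0.09), FADS1 (r = 0.08, rho = -0.02) and SREBF1 (r = -0.27, rho = -0.25) did not pass (adjusted p of r from 0.0858 to 0.57). Without the 2 pigs farthest from the median marker level, r was 0.81 for FASN, 0.82 for DGAT2, 0.70 for SCD, 0.63 for ACLY and 0.56 for ELOVL6. The r of DGAT1 fell to 0.31 and no longer passed (adjusted permutation p = 0.061), while its rho of 0.33 did (adjusted permutation p = 0.046).

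The relation was also taken within the groups and slides, where it was less even. Inside the 4 groups of 12 pigs r ran from 0.79 to 0.90 for FASN, from 0.69 to 0.92 for DGAT2, from 0.58 to 0.79 for SCD and from 0.56 to 0.79 for ACLY. For ELOVL6 it was 0.83 and 0.84 in the high RFI line on the HF and LF diets, 0.42 in the low RFI, LF diet group and 0.01 in the low RFI, HF diet group. Within the 6 slides of 8 pigs it ran from 0.67 to 0.86 for FASN and from 0.74 to 0.91 for DGAT2, but from 0.39 to 0.88 for SCD, from 0.46 to 0.95 for ACLY and from -0.04 to 0.89 for ELOVL6. Among the 12 low RFI pigs on the HF diet FASN alone passed by r (adjusted permutation p = 0.0187), with adjusted permutation p of 0.0667 for DGAT2 and 0.153 for SCD and ACLY. By rho both FASN (0.88, adjusted permutation p = 0.0039) and DGAT2 (0.73, adjusted permutation p = 0.044) passed there. After removing group and slide means, r was 0.81, 0.85, 0.65, 0.60 and 0.58 for FASN, DGAT2, SCD, ACLY and ELOVL6.

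**Figure D5:**
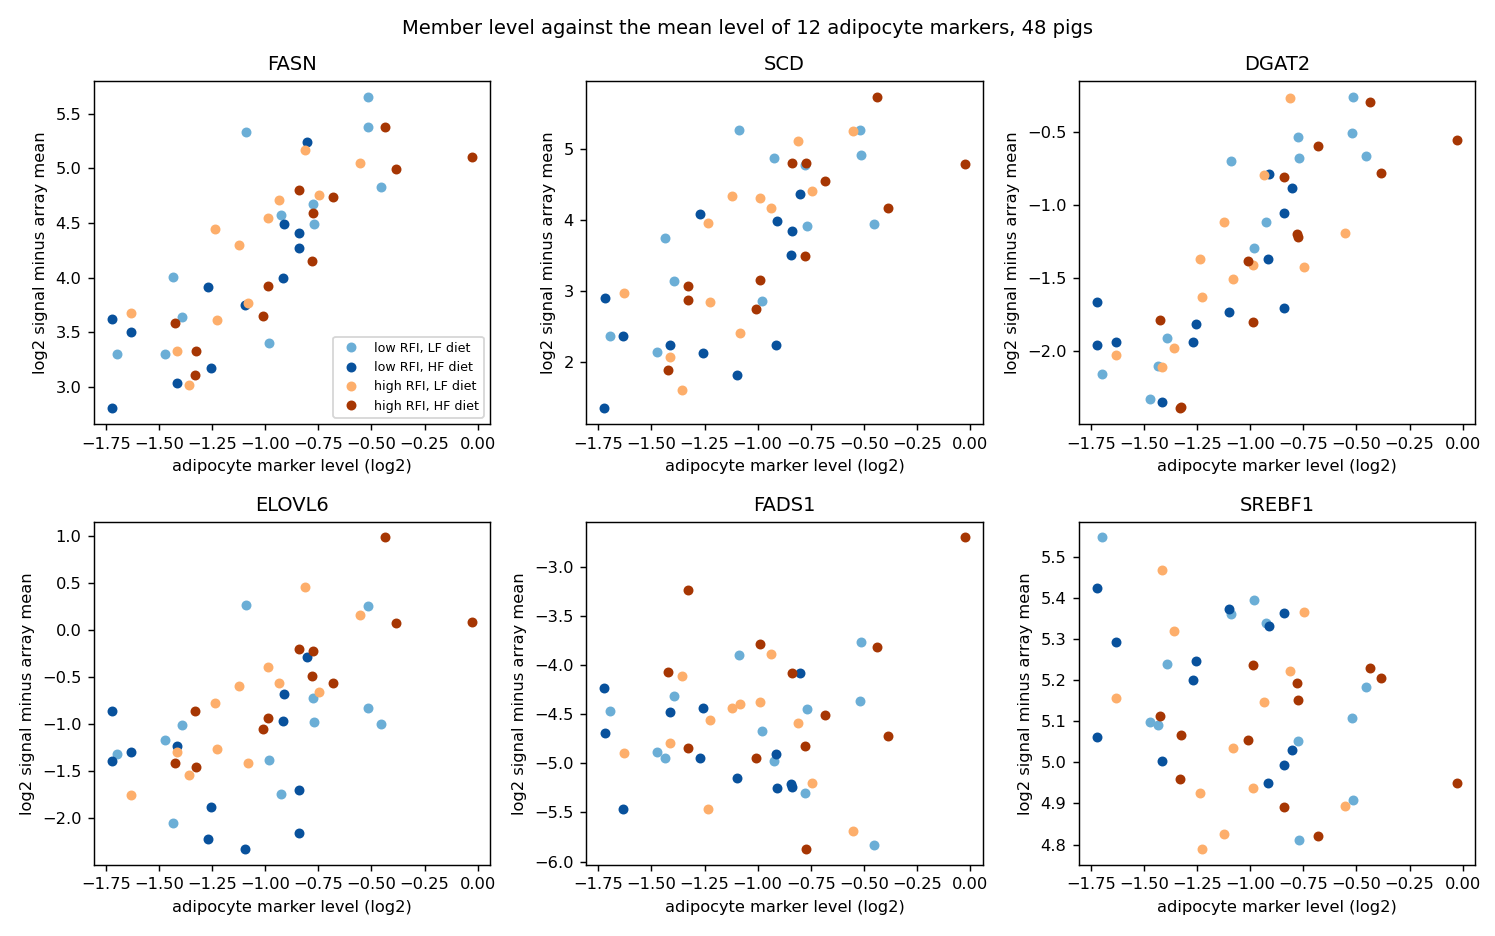
Level of 6 members at their main probes against the mean level of 12 adipocyte markers in the 48 pigs, coloured by line and diet; both axes are log2 signal minus the array mean. FASN (r = 0.82), DGAT2 (r = 0.82), SCD (r = 0.72) and ELOVL6 (r = 0.58) rise with the markers over all 48 pigs, and FADS1 (r = 0.08) and SREBF1 (r = -0.27) do not.

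The adipocyte marker level was compared between the groups as well. Its lowest, median and highest values were -1.72, -1.18 and -0.80 in the low RFI, HF diet group and -1.70, -0.95 and -0.45 in the low RFI, LF diet group. They were -1.42, -0.81 and -0.03 in the high RFI, HF diet group and -1.63, -1.10 and -0.55 in the high RFI, LF diet group. Low RFI pigs on the HF diet had the lowest median and high RFI pigs on the HF diet the highest, with overlapping ranges. The former group also had the lowest mean for FASN, SCD, ACLY, ME1, ELOVL6 and DGAT2. Of the 47 tested adipocyte probes, 36 were lower on the HF diet in the low RFI line (median -0.18, 0 passed, 0 at an unadjusted p under 0.05). On the HF diet 43 of 47 were higher in the high RFI line (median 0.40, 2 passed, both of LIPE, or 4.26% beside 6.39% of all tested probes). Averaged over diets 10 passed, all at higher levels in high RFI pigs, 8 of FABP4 and 2 of LIPE, which is 21.3% of the 47 beside 16.4% of all tested probes. Of the 91 muscle fiber probes 28 passed for the line, all lower in high RFI pigs (30.8%, beside 16.4% of all tested probes), with a median of -0.10 over the 91. None of the probes of ACTA1, MYH1, MYH7 and DES were among them, and the median for MYH7 was 0.08. For the 46 probes of liver, immune, blood, vessel and epithelial markers, 1 passed for the line, of CD163. The part of adipocyte content in the members' line and diet differences was not tested.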

How the data were processed

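Total RNA of longissimus muscle of 48 pigs was hybridised, 1 pig per array, to a 1-colour 60 K Agilent array. The deposited scanner files hold, per spot, the processed signal, a background-subtracted and detrended intensity made by Feature Extraction and not normalized between arrays, with flags per spot. The authors also deposited a log2 table, which held 34472 probes and equalled the log2 median signal minus the array median within 5e-06; R 2.10.0 is named in the submitters' notes. Spots flagged as outliers were left out, as were control spots, and spots of 1 probe were averaged. Probes that rose well above background on 12 or more arrays were kept (42125), log2 transformed and centred on the mean of each array. This centring makes every level relative to the tested probes as a whole. Of the kept probes, 168 lacked 169 values; no main probe did.

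The 4 group means were fitted with limma 3.58.1 in R 4.3.3, without covariates, with Benjamini-Hochberg adjustment over all tested probes and a threshold of 0.05. The fit was tested on simulated data: of 200 probes changed by 0.5 or 1 (log2) for diet among 42125, it recovered 78.5% and 97%, and 2.48% and 7.62% of the probes it called were false. These 200 were drawn from all tested probes, with independent noise, for diet averaged over lines only. The shares therefore do not give the power for single members. At the main probes the standard error of that difference was 0.31 for SCD and 0.21 for FASN. Intervals are 95% intervals from limma's standard errors. Correlations used numpy 2.4.6 and scipy 1.17.1 with 100000 permutations. Genes were named from the array, and accessions through RefSeq's gene table. The text names all 10 members, the called probes of the pathway list (up to 5 in each direction) and the 5 genes with the highest r for each member; 4 of the 5 are left out for ME1, FADS1, FADS2 and DGAT1. The members, gene lists and tests were chosen with earlier results of these data known. The lines, diets and animals come from the labels and the study's methods; arrays of a group correlated at 0.966 to 0.990, and p-values measure the spread between these pigs. Pigs are numbered 1 to 12 within a group in accession order, as names only. The number of arrays limits the precision. Alternatives were other scalings, background corrections, filters, slide and scan day terms, the deposited table, means over probes, an additive model, a plain 2-way variance analysis per probe, and each pig left out. Some probe sequences are not reported here.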

Additional observations from a re-analysis of the deposited data

How the results depend on the processing

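No paired analysis was possible because the labels give every pig the replicate number 1, so that numbers pair no samples; the slide, which held 2 pigs of each group, was fitted as a block and left the number of member probes called for diet and for the line averaged over diets as it was. No member probe passed for diet averaged over lines, for diet within a line or for the interaction under any scaling, filter, slide or scan day term or averaging of probes tried. With a plain variance analysis per probe without adjustment, 1 member probe passed for diet averaged over lines, 17 for diet in the low RFI line, 17 for the line on the HF diet, 1 for the line on the LF diet and 6 for the interaction, and 9 and 20 pathway probes for diet and line. For the line averaged over diets, where 2 member probes passed, 1 did with normexp, with no filter on signal, with the additive model, with the adjusted variance analysis and without the 2 pigs farthest on the principal components (high RFI, HF diet pigs 6 and 10, chosen after seeing the data), and 0 with probes averaged per gene. On the HF diet 0 passed without the filter or with averaged probes, and 1 without those 2 pigs. Where 1 of the 2 was lost it was ELOVL6, whose adjusted p for the line averaged over diets was then 0.0505 to 0.0829. Of the pathway list, 6 passed for the line without the filter and 5 genes with averaged probes, against 13. Leaving out 1 pig gave 0 to 1 member probes for diet averaged over lines, 0 to 0 in the low and the high RFI line, for the LF diet and for the interaction, 1 to 2 for the line, 1 to 3 on the HF diet, 0 to 1 pathway probes for diet and 10 to 16 for the line.

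The sign of values near 0 turned. The SREBF1 diet difference averaged over lines was 0.0202 with 75th percentile scaling, 0.018 with quantile normalization, 0.0081 with median scaling, 0.0043 with normexp, 0.0078 with the strict filter, 0.0148 with the deposited table and 0.0088 without those 2 pigs, and -0.020 to 0.014 leaving out 1 pig. In the low RFI line it was -0.16 as a mean over probes, and -0.022 to 0.045 leaving out 1 pig. With normexp the low RFI diet difference was 0.0061 for FADS1 and 0.0196 for FADS2. The ME1 line difference at the main probe ran from -0.021 to 0.044 leaving out 1 pig. The number of members related to the adipocyte markers (6) fell to 1 by r within low RFI pigs on the HF diet, and by rho only FASN and DGAT2 were left. Over all pigs ME1 passed by r with quantile normalization (r = 0.34, adjusted permutation p = 0.0275). FADS2 passed by r after removing group and slide means (r = 0.32, adjusted permutation p = 0.039). DGAT1 did not pass with the defining markers only (r = 0.29, adjusted permutation p = 0.073). By rho none of these passed (adjusted permutation p = 0.114, 0.0509 and 0.065). The causes were not tested. The array centring and the dim probes of FADS1 and FADS2 limit what could be seen.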
